A study of Mus musculus with 10 samples.

Results

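The genes described here encode the subunits of the proteasome and of the chaperonin CCT, together with the helpers that share their names, in mouse oocytes and early embryos. They were chosen by symbol alone. A row of the expression table was taken when its gene name began with Psm, a letter from a to g and a number, when it began with Cct and a number, or when it was Tcp1, which gave 59 of 21437 genes. The 59 rows comprised 6 alpha and 7 beta subunits of the standard 20S core, 6 ATPases and 11 other subunits of the 19S cap, 7 assembly chaperones, 5 activators or inhibitors, 3 tissue-restricted core subunits, the 8 subunits of CCT, 4 pseudogenes and 2 genes that are no subunits (Psmc3ip, a recombination factor, and Cct8l1, a CCT-like gene). Psma5, Psmb8, Psmb10, Psme2 and Cct6b were not analysed here.

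RNA-seq was done on 10 libraries in 5 groups of 2. These were MII oocytes collected 16 h after hCG, middle 2-cell embryos at 40 h and early 4-cell embryos at 55 h, the embryos as controls (labelled wild type) and after knockdown of Ago2 (Ago2 kd), the Argonaute protein that binds small RNAs and can cut their targets. According to the Methods, females were 7 weeks old and received 6.5 IU of PMSG and 5 IU of hCG 47 h later, and embryos were cultured in KSOM. Ago2 was knocked down transiently, by injecting zygotes with siRNAs against Ago2 and with antibodies against its protein. A scrambled siRNA is named as the negative control, but whether the sequenced control embryos were injected is not stated. The labels give the strain ICR for every sample, whereas the Methods give ICR for oocytes and F1 parents for embryos, so strain and stage cannot be told apart between oocytes and embryos. Ago2 itself was not analysed here, so the Ago2 kd labels were not checked against the targeted gene.

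The 26S proteasome degrades proteins tagged with ubiquitin. Its barrel-shaped 20S core is built of rings of alpha and beta subunits, of which some beta subunits cut proteins, and its 19S caps hold ATPases that unfold the substrate, ubiquitin receptors and a deubiquitinase. CCT (also called TRiC) is a double ring of different but related subunits that folds new actin, tubulin and other proteins. Both machines need each of their subunits, in equal numbers, and both are found in nearly every cell. In the mouse, the first embryonic cleavages are accompanied by the removal of maternal mRNA and the start of transcription from the zygotic genome.

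Values are FPKM, fragment counts that the authors scaled by the depth of the library and by exon length, so that levels can be compared between genes. The sum of the 8 oocyte markers examined was 5698 to 6554 FPKM in MII oocytes, at most 1069 in 2-cell libraries and at most 31.6 in 4-cell libraries. The sum of the 4 markers of 2-cell embryos in the table was at most 0.113 FPKM in MII oocytes, 309 to 363 in 2-cell control, 148 to 324 in 2-cell Ago2 kd and 67.3 to 163 in 4-cell libraries. Of the markers of other cells in the table, those of cumulus or granulosa cells (2 genes) summed to at most 1.75 FPKM, those of blood cells (3 genes) to at most 7.04 and those of sperm (2 genes) to at most 1.78 in any library. The number of reads per library is unknown, so no counting error can be given.

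Low values need care in this table. Of the 59 members, 26 were listed at 0 in at least 1 library, and 21 were below 0.1 FPKM in 1 library and above 10 in another. Psmc2, an ATPase without which no 19S cap forms, did not exceed 0.212 FPKM in any library, and Gapdh, a glycolytic enzyme of every cell, did not exceed 0.167. Cct8 stayed at or below 1.69 FPKM, the alpha subunit gene Psma3 at or below 2.83 and the 19S gene Psmd11 at or below 3.06, while the highest values of partners in the same complexes were 369 (Cct5), 274 (Psma2) and 452 FPKM (Psmd7). A low value was therefore not read as absence of the mRNA. Protein-coding members have 1 to 15 annotated transcripts (median 5), and how these were reduced to 1 value per gene name is not stated. The exons of 19 members overlap another annotated gene, 14 of them a gene on the other strand, and no strand is stated for the libraries, so the reads of such pairs cannot be told apart.

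**Figure D1:**
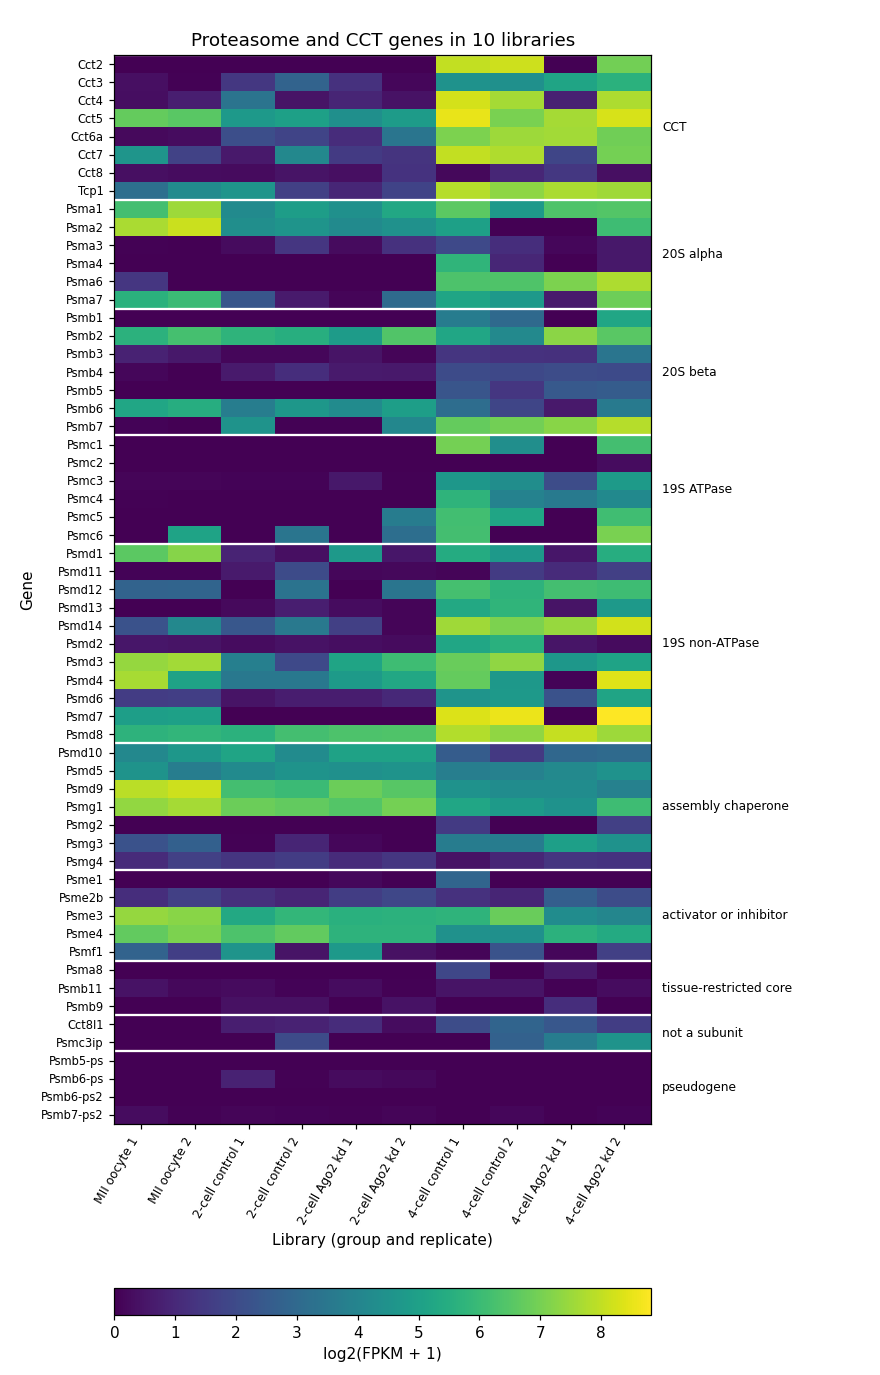
Heat map of the 59 genes (rows, grouped by complex) in the 10 libraries (columns, group and replicate); colour is log2(FPKM + 1). CCT and 19S genes were mostly dark in oocyte and 2-cell libraries and bright in the 4-cell control libraries, the assembly chaperones Psmd9 and Psmg1 ran the other way, and the first 4-cell Ago2 kd library had dark cells where the second was bright.

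In MII oocytes the members were uneven. In the first oocyte library 18 and in the second 20 of the 59 members reached 10 FPKM. Members at high level in oocytes included subunits of the core, the cap and the helpers. Psma2, a 20S alpha subunit, was at 208 and 274 FPKM, and Psmd3, a subunit of the 19S lid, at 173 and 195. Psmd9 and Psmg1, chaperones that assemble the 19S base and the alpha ring, were at 237 and 280 FPKM and at 169 and 199. Psme3, the nuclear activator PA28 gamma, was at 170 and 152 FPKM, and Psme4, the activator PA200, at 103 and 134. Of the 8 CCT genes, Cct5 led with 105 and 92.9 FPKM. Tcp1 (CCT alpha) followed with 8.27 and 18, and Cct7 with 23.5 and 2.38. The other 5 CCT genes were below 1 FPKM in both oocyte libraries, and Cct2 was listed at 0. With the threshold of the study for maternal mRNA, a mean above 2 FPKM in oocytes, 25 of the 59 members (42.4%) were maternal, against 4825 of all 21437 genes (22.5%). All genes here include many that were low in nearly every library.

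From MII oocytes to 2-cell control embryos, 4 members fell and none rose. Of the 8726 genes tested, 14.2% were lower and 6.54% higher at an adjusted p below 0.05 (limma with Benjamini-Hochberg adjustment), and 49 of the 59 members passed the same filter of 1 FPKM in 2 libraries. Without adjustment, 7 members were lower and 2 higher, where 21.6% and 11% of genes were. Psmd3 was at 173 and 195 FPKM in oocytes and at 12.9 and 2.88 in 2-cell embryos. It fell by 4.65 on the log2(FPKM + 1) scale (SE 0.64, adjusted p 0.00327 by limma). Psmd9 was at 237 and 280, then at 71.0 and 63.2 FPKM. The difference was -1.93 (SE 0.29, adjusted p 0.00473 by limma). Psme3 went from 170 and 152 to 39.5 and 56.1 FPKM, a difference of -1.75 (adjusted p 0.0241 by limma). Psmg3, a chaperone of alpha ring assembly, was low at both stages, at 3.65 and 5.54 and then at 0.0382 and 0.888 FPKM (adjusted p 0.0202 by limma). For each of the 4 genes the groups did not overlap, which held in this direction for 18 of the 49 members tested (37% of all genes tested) and in the other direction for 7 (25%).

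This step depends on the scaling of the libraries, since the FPKM summed to 450124 and 458874 in the oocyte libraries and to 196312 and 203645 in the 2-cell control libraries. Rescaling each library to the same sum moved the median difference of all genes tested from -0.06 to 0.38 and turned the split of members from 0 higher and 4 lower to 3 higher and 1 lower. The 4 named genes were lower in 2-cell embryos under each of the 19 alternatives, and Psmd3 kept its call in each of them. Of the other calls, those of Psmg3 and Psme3 were each lost in 7 and that of Psmd9 in 3. The number of members that fell also changed with the library left out, as did that of all genes tested.

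From 2-cell to 4-cell control embryos 5 of the 8 CCT genes and 11 of the 16 tested 19S genes rose, while 3 of the 7 assembly chaperones fell. Of the 49 members tested, 21 were higher and 4 lower at an adjusted p below 0.05, where 21.1% of the 8726 genes tested were higher and 17.5% lower. Without adjustment 26 members were higher and 4 lower, where 26% and 20.9% of genes were. Both 4-cell libraries lay above both 2-cell libraries for 30 members, against 38.4% of genes tested, and below them for 8, against 30.2%. The number of members that rose changed with the library left out, as did that of all genes tested. The 19S genes that rose were 3 of the 5 tested ATPases and 8 of the 11 other subunits, and in the core 1 of the 5 tested alpha and 2 of the 7 beta subunits rose. The median difference was 2.19 over the members tested and 0.24 over all genes tested on the log2(FPKM + 1) scale. It was 4.89 for CCT, 4.29 for the 19S subunits other than the ATPases, 1.17 for the beta subunits and -0.78 for the 7 assembly chaperones. Among the members that rose or fell, the call was lost in 13 of 19 alternatives for Psmd12, in 11 for Cct8l1, in 9 for Psmd7 and Psmg1, in 8 for Cct3 and Psmb4 and in 10 of 18 for Psmc1.

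Some members entered the test only because they were present at the 4-cell stage, so that they could hardly come out lower there, and their calls are a description. Of the 49 tested, 10 were below 1 FPKM in all 6 oocyte and 2-cell libraries, namely Psmb1, Psmb3, Psmb5, Psmc1, Psmc3, Psmc4, Psmd2, Psmd13, Psmg2 and Cct2. Of these 10, 7 rose, against 613 of the 1235 genes (49.6%) that entered in this way, and the 7 include all 3 ATPases that rose. Among the 39 members with at least 1 FPKM in an oocyte or 2-cell library, 14 rose (35.9%) and 4 fell (10.3%), against 16.4% and 20.4% of the 7491 genes of that kind. By complex these were 4 of 7 CCT genes, 0 of 2 ATPases, 6 of 9 other 19S subunits, 1 of 5 alpha and 1 of 4 beta subunits that rose. Of the 39, Psma6, Psmb4, Cct8l1, Cct4, Cct8, Psmc5, Psmd11 and Psmc3ip reached 1 FPKM in only 1 oocyte or 2-cell library. They too needed a 4-cell library to pass the filter. Psma6, Psmb4 and Cct8l1 are among the 14 that rose, and Psma6 and Psmb4 are the alpha and the beta subunit. Their calls are a description as well. Over all 59 members without a filter, 34 (57.6%) were higher by more than 1 log2 unit and 7 (11.9%) lower, against 15.8% and 11.2% of the whole table. The whole table includes many genes that were low in nearly every library, so these shares do not compare genes of like level. The 10 members not tested were Psma4, Psma8, Psmb9, Psmb11, Psmc2, Psme1 and the 4 pseudogenes.

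**Figure D2:**
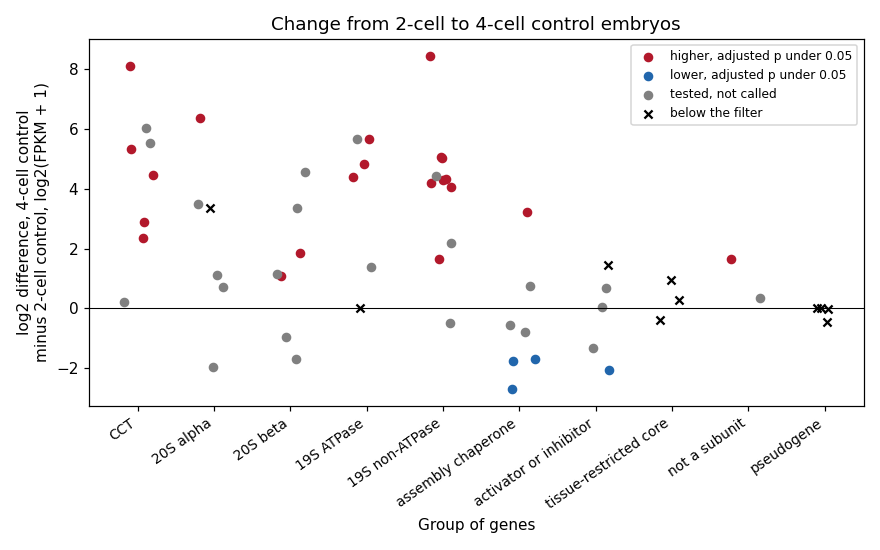
Difference between 4-cell and 2-cell control embryos on the log2(FPKM + 1) scale (vertical axis) for each of the 59 genes, by complex or role (horizontal axis); red and blue points passed an adjusted p of 0.05, grey points did not, and crosses were below the filter. CCT and 19S genes lay mostly above 0, with 5 and 11 red points, and 3 of the 7 assembly chaperones were blue.

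Within CCT, 7 of the 8 genes were above 20 FPKM in both 4-cell control libraries. Cct2 was listed at 0 in all oocyte and 2-cell libraries and was at 260 and 283 FPKM in 4-cell control embryos (adjusted p 0.0151 by limma). It passed the filter through 4-cell libraries alone, so its call is a description. Cct6a was at 3.37 and 2.53 FPKM in 2-cell and at 135 and 182 in 4-cell embryos, a difference of 5.33 (SE 0.73, adjusted p 0.00171 by limma). Tcp1 rose from 23.5 and 2.16 to 230 and 161 FPKM, a difference of 4.45 (SE 0.92, adjusted p 0.00934 by limma). Each of these genes had both 4-cell libraries far above both 2-cell libraries.

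Cct5 was the only CCT gene above 10 FPKM in all 10 libraries. It was at 26.4 and 31.0 FPKM in 2-cell embryos, below its oocyte level, and at 369 and 130 in 4-cell embryos, a rise of 2.89 (SE 0.51, adjusted p 0.00515 by limma). Cct3 rose from 1.68 and 6.08 to 21.5 and 20.7 FPKM, a difference of 2.34 (adjusted p 0.0203 by limma). Cct4 was at 9.44 and 0.382 and then at 307 and 197 FPKM (adjusted p 0.0569 by limma). Cct7 was at 0.505 and 16.3 and then at 255 and 218 FPKM (adjusted p 0.054 by limma). The 4-cell control libraries of Cct4 and Cct7 lay above both 2-cell libraries, but neither gene passed the threshold, and their replicates lay far apart in 2-cell embryos. Cct8 showed no such step, at 0.203 and 0.387 and then at 0.134 and 0.939 FPKM.

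The mean levels of the CCT genes in 4-cell control embryos ran in the order Cct2, Cct4, Cct5, Cct7, Tcp1, Cct6a, Cct3 and Cct8, from 272 down to 0.537 FPKM. The first 6 of these lay within 130 to 369 FPKM in single libraries, and neighbours in the order overlapped. Cct3, at 21.5 and 20.7, lay below all of them and above Cct8.

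In the 19S base, the genes of the ATPase ring were low before the 4-cell stage, apart from Psmc6 at 33.7 FPKM in 1 oocyte library and Psmc5 at 12 in 1 library of 2-cell Ago2 kd embryos. No ATPase gene reached 10 FPKM in a 2-cell control library, and 5 of the 6 had a mean above 10 FPKM in 4-cell control embryos. Psmc4 was listed at 0 in both 2-cell control libraries and was at 52.0 and 14.2 FPKM in 4-cell embryos (adjusted p 0.00113 by limma). Psmc1 was listed at 0 in all 6 earlier libraries and was at 126 and 19.4 FPKM (adjusted p 0.0473 by limma). Psmc3 was the third ATPase gene that rose (adjusted p 0.0063 by limma). Psmc1, Psmc3 and Psmc4 passed the filter through 4-cell libraries alone, so their calls are a description. Psmc6, the ATPase gene with the highest mean, was listed at 0 in 1 library of each of the 5 groups and reached 131 FPKM in another, so that its replicates disagreed at every stage.

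Among the other 19S subunits, Psmd2, a scaffold of the 19S base, was at 0.236 and 0.351 FPKM in 2-cell and at 36.2 and 47.5 in 4-cell control embryos. The difference was 5.04 (SE 0.31, adjusted p 8.65e-05 by limma). Of the 49 members tested, it was the only one that reached 1 FPKM in the 4-cell control libraries alone. Of the 145 genes that passed the filter in this way 95.2% rose. Psmd7, which pairs with the deubiquitinase Psmd14 in the lid, was at 30 and 31.3 FPKM in oocytes, was listed at 0 in all 2-cell libraries and was at 326 and 375 in 4-cell control embryos (adjusted p 0.0304 by limma). Psmd13, also of the lid, went from 0.169 and 0.691 to 39.5 and 54.1 FPKM, a difference of 5.07 (SE 1.21, adjusted p 0.0159 by limma). It passed the filter through 4-cell libraries alone, so its call is a description. Psmd3 returned from 12.9 and 2.88 to 110 and 162 FPKM after its fall from the oocyte. Psmd8, the 19S gene with the highest mean over the 10 libraries, never fell below 49.8 FPKM and rose from 49.8 and 71.1 to 222 and 164, a difference of 1.66 (SE 0.31, adjusted p 0.00635 by limma). Psmd6, Psmd12 and Psmd14 rose as well, with differences of 4.07 to 4.34. Psmd11 was at 0.559 and 3.06 and then at 0.0999 and 1.89 FPKM, so its groups overlapped.

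In the 20S core fewer genes passed the test, and the difference from the 19S cap was not tested. Psma6 was the only alpha subunit gene that rose, from 0 in both 2-cell libraries to 80.2 and 83.4 FPKM (adjusted p 0.000224 by limma). Psma2, the alpha subunit with the highest mean, was at 19.6 and 22.9 FPKM in 2-cell embryos and at 31.6 and 0 in 4-cell control embryos. Of the beta subunits, Psmb5 (the chymotrypsin-like site) rose from 0 in both libraries to 3.97 and 1.61 FPKM, and Psmb4 from 0.548 and 1.21 to 3.06 and 2.78, so both stayed low. Psmb5 passed the filter through 4-cell libraries alone, so its call is a description. Psma6 and Psmb4 each reached 1 FPKM in only 1 earlier library and also needed a 4-cell library to pass. Their calls are a description too. Psmb7 (the trypsin-like site), the beta subunit with the highest mean, was at 22 and 0.0354 and then at 105 and 123 FPKM (adjusted p 0.0693 by limma). Psma7 and Psmb1 had differences of 3.49 and 3.36 that did not pass (adjusted p 0.208 and 0.112 by limma). Psmb2 stayed between 16.7 and 154 FPKM in all libraries.

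The 4 members that fell at this step were helpers. Psmd9 fell again, from 71.0 and 63.2 to 21.5 and 18.7 FPKM, a difference of -1.69 (SE 0.29, adjusted p 0.00459 by limma). Psmg1 went from 113 and 103 to 36.5 and 27.1 FPKM (adjusted p 0.036 by limma). Psmd10 (gankyrin), a chaperone of the 19S base on the X chromosome, went from 34.3 and 18.3 to 4.92 and 1.75 FPKM, a difference of -2.69 (SE 0.50, adjusted p 0.00622 by limma). Psme4 went from 80.3 and 103 to 21.1 and 20.7 FPKM, a difference of -2.07 (SE 0.29, adjusted p 0.00176 by limma). Psmg3 was the exception among the assembly chaperones and rose from 0.0382 and 0.888 to 12.0 and 12.0 FPKM. Psmd5, a chaperone of the 19S base, stayed between 12.4 and 22.4 FPKM in all 10 libraries.

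Summed over members, the 8 CCT genes took 0.0332% and 0.0289% of all FPKM in the 2-cell control libraries and 0.587% and 0.494% in the 4-cell control libraries. The 11 19S subunits other than ATPases went from 0.0406% and 0.0539% to 0.434% and 0.442%. The assembly chaperones went the other way, from 0.121% and 0.103% to 0.0334% and 0.0307%. Rescaling a library by 1 factor does not change these shares, but they depend on the levels of all other genes.

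Members were also grouped by steps of more than 1 log2 unit in the mean FPKM, with no test. The most frequent course among the 25 maternal members was a lower mean at the 2-cell and again a higher one at the 4-cell stage, seen in 10 of them (40%) and in 845 of 4825 maternal genes (17.5%). Of these 10, Psmd3 and Psmg3 passed the limma test at both steps, and Cct5, Psmd6 and Psmd7 at the second step only. Psma1, Psma7, Psmc6, Psmd1 and Psmd4 passed at neither. The mean was lower at each step for 2 members, Psmb6 and Psmd9, against 14.4% of maternal genes, and only at the second for Psmd10, Psme4 and Psmg1, against 18.8%. Of the 34 members that were not maternal, 20 (58.8%) had a higher mean at the 4-cell stage by this rule, against 13.4% of 16612 genes. Only 8726 of the 21437 genes, but 49 of the 59 members, passed the filter of 1 FPKM in 2 libraries. The 16612 thus include many genes that were low in nearly every library, and these shares do not compare genes of like level.

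Promoters were searched for letters that the members share. RefSeq (GRCm38.p6) gave start sites for 46 of the 59 members, 50 in all, and the 250 bases before each start were searched on both strands. For 37 of the 50 starts, the bases just after the start were found in a GENCODE transcript of the gene. The ETS motif CCGGAA was present before 23 of the 50 starts (46.0%), against 12.0% of all 32851 starts. These were not matched to the members by expression level or base content, so an excess cannot be read as particular to these complexes. The letters CCAAT, the core of the NF-Y box, were present before 38.0%, against 33.8%, and TATAAA before 6.0%, against 12.4%. TGACNNNGC, the core of the antioxidant response element to which the proteasome regulator Nfe2l1 binds, was present before 16%, against 10.2%. Among members that rose at the second step, 42.9% of 21 starts held the ETS motif, and among the rest 48.3% of 29 did. A match is a description of the letters and not of a bound site.

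The sequences shown are those of 3 genes that rose (Psmd2, Psmb5 and Cct3), of 2 that fell (Psmg1 and Psmd10) and of Psme3, which was lower in 4-cell Ago2 kd embryos. Each lies within the 150 bases before the RefSeq start, reads 5′ to 3′ in the direction of the gene and leaves out bases inside the GENCODE gene. Capitals mark the ETS motif, the CCAAT box or the antioxidant response element core on either strand, and GRCm38 coordinates stand with each name.
Psmd2, chr16:20651502-20651651, plus strand: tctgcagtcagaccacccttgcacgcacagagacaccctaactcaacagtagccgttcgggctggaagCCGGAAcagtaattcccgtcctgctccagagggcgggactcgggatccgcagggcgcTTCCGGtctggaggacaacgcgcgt
Psmb5, chr14:54618023-54618145, minus strand: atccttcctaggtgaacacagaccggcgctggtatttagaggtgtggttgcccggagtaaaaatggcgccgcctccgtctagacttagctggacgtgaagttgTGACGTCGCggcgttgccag
Cct3, chr3:88296985-88297115, plus strand: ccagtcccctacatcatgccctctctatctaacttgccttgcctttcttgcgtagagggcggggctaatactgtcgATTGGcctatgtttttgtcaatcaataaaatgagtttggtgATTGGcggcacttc
Psmg1, chr16:95990961-95991110, minus strand: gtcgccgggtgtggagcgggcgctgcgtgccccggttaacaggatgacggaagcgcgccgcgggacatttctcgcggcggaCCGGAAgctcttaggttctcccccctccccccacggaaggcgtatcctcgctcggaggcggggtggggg
Psmd10, chrX:140956729-140956861, minus strand: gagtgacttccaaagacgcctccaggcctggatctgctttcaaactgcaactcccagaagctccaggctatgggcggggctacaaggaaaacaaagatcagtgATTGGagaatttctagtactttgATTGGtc
Psme3, chr11:101316063-101316212, plus strand: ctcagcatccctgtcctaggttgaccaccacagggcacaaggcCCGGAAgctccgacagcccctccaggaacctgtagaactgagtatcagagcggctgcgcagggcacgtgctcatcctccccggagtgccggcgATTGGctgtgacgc
Psmd2 held the ETS motif at both capital stretches, Psmg1 at its single one, and Psmb5 the antioxidant response element core. Cct3 and Psmd10 held CCAAT on the opposite strand in each capital stretch, and Psme3 held an ETS motif followed by CCAAT on the opposite strand.

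At the 2-cell stage no member differed between Ago2 kd and control embryos at an adjusted p below 0.05 (limma), where 0.332% of genes tested were higher and 0.218% lower. Without adjustment 1 member was higher and 2 were lower, where 2.96% and 3.0% of genes were. These 3 are named as the members with the lowest p. Psmd3 was at 12.9 and 2.88 FPKM in control and at 34.4 and 67.0 in Ago2 kd embryos, a difference of 2.74 (SE 0.64, adjusted p 0.233 by limma). Psme4 was at 80.3 and 103 and at 50.9 and 50.9 FPKM (adjusted p 0.633 by limma). Psmd14 was at 4.31 and 10.8 and at 2.18 and 0.0963 FPKM (adjusted p 0.763 by limma). Groups did not overlap for these 3 genes, nor for 6 members in all that were higher (14.4% of genes) and 5 that were lower (14.7%). The medians of the members tested and of all genes tested were 0 in this comparison.

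At the 4-cell stage 2 members were lower in Ago2 kd than in control embryos and none higher at an adjusted p below 0.05, where 2.77% of genes tested were lower and 1.23% higher. Without adjustment 5 were lower and 4 higher, where 8.07% and 7.37% of genes were. Both Ago2 kd libraries lay below both control libraries for 8 members, against 16.9% of genes, and above them for 12, against 20.1%. The control libraries are those of the step from 2 to 4 cells, so the comparisons are not independent. Psmd2, at chr16:20651652-20663414, was at 36.2 and 47.5 FPKM in control and at 0.416 and 0.188 in Ago2 kd embryos. It fell by 5.03 on the log2(FPKM + 1) scale (SE 0.31, adjusted p 0.000332 by limma). The levels in 4-cell Ago2 kd embryos were in the range of the 6 oocyte and 2-cell libraries, 0.202 to 0.456 FPKM, or just below it. Psmd2 passed the filter through the 4-cell control libraries alone, so it could only come out lower here. Of the 145 genes that passed in this way 102 (70.3%) were lower, so the call of Psmd2 is a description. It was lost when only the compared groups were fitted (adjusted p 0.185 by limma). Psme3, at chr11:101316213-101323537, was at 51.9 and 111 FPKM in control and at 18.5 and 15.7 in Ago2 kd embryos, a difference of -2.09 (SE 0.41, adjusted p 0.0405 by limma). Its call was lost in 16 of 19 alternatives. The number of members that were lower changed most when the second 4-cell Ago2 kd library was left out, and so did that of all genes tested.

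**Figure D3:**
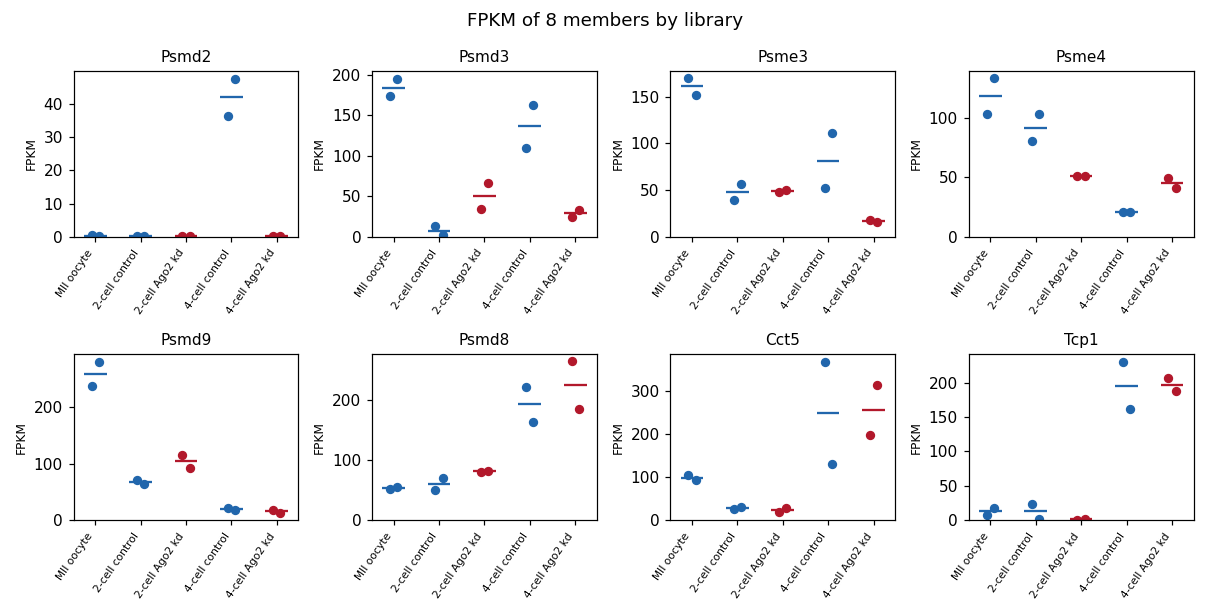
FPKM (vertical axis, linear) of 8 genes in the 5 groups (horizontal axis); points are single libraries, lines the mean of the 2 libraries, blue for oocytes and control embryos and red for Ago2 kd embryos. Psmd2 was above 36 FPKM in the 4-cell control libraries and below 0.5 in every other library, and Psme4 in Ago2 kd embryos lay below control at the 2-cell and above control at the 4-cell stage.

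The effect of Ago2 kd differed between the stages for 2 members, where 1.64% of genes tested were lower and 0.642% higher in this test of the difference. Without adjustment 3 members were lower and 4 higher, where 7.11% and 6.27% of genes were. For Psmd2 the effect at the 4-cell stage minus that at the 2-cell stage was -4.96 on the log2(FPKM + 1) scale (SE 0.44, adjusted p 0.00291 by limma). This value rests on the same 4-cell control libraries that let the gene pass the filter, and 47.6% of the 145 genes of that kind were lower in this test. For Psmd3 this difference was -4.93 (SE 0.91, adjusted p 0.0455 by limma), and the call was lost in 17 of 19 alternatives. Psmd3 was at 110 and 162 FPKM in 4-cell control and at 24.4 and 33.4 in 4-cell Ago2 kd embryos (adjusted p 0.149 by limma), and so stood above control in 2-cell and below control in 4-cell Ago2 kd embryos. Psme4 went the other way, at 21.1 and 20.7 FPKM in 4-cell control and 49.6 and 41.5 in 4-cell Ago2 kd embryos, and its difference between stages of 1.91 did not pass (SE 0.40, adjusted p 0.0744 by limma). The number of members with a lower difference changed most when the second 4-cell Ago2 kd library was left out, and so did that of all genes tested.

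The 4-cell Ago2 kd libraries disagreed about these genes. Of the 32 members with at least 10 FPKM in both 4-cell control libraries, 10 (31.2%) were below 1 FPKM in the first Ago2 kd library, against 18% of 2198 such genes in the table. In the second Ago2 kd library it was 1 member (3.12%), against 6.1% of genes. The 10 members were Cct2, Cct4, Psma7, Psmc1, Psmc5, Psmd1, Psmd2, Psmd4, Psmd7 and Psmd13, and only Psmd2 was low in both libraries. Psmd7 was listed at 0 in the first library and was at 452 FPKM in the second, Cct4 was at 0.733 and 210 and Psmd4 at 0.071 and 336. On the log2(FPKM + 1) scale, the replicates correlated over the 49 members with a Pearson's r of 0.386 in 4-cell Ago2 kd embryos and of 0.766 to 0.935 in the other groups. This is across genes, which are not independent replicates. Over all genes tested r was 0.75, and 0.812 to 0.913 in the other groups. With both Ago2 kd libraries the median difference from control over the members tested was 0.03. It was 0.52 without the first library and -0.14 without the second, and 0 in each case over all genes tested. The share of all FPKM in mitochondrially encoded genes also moved with stage and group. It was 2.02% and 2.23% in oocytes, 3.04% to 5.34% in 2-cell libraries, 10.8% and 5.22% in 4-cell control and 11.1% and 13.0% in 4-cell Ago2 kd libraries. Its part in the results was not tested.

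**Figure D4:**
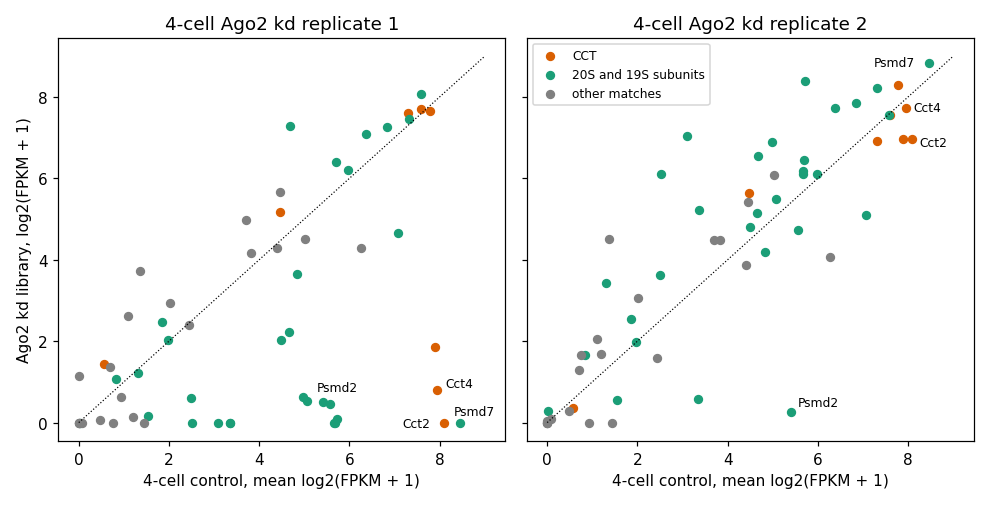
The 59 genes in each 4-cell Ago2 kd library (vertical axes, log2(FPKM + 1)) against their mean in 4-cell control embryos (horizontal axes, same scale); the dotted line marks equal values. In replicate 1 a set of genes with high control levels lay near 0, among them Psmd7, Cct2 and Cct4, and in replicate 2 Psmd2 was the only gene below 1 FPKM among those with at least 10 FPKM in both control libraries.

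Not all members followed this split. Tcp1 was at 206 and 187 FPKM after Ago2 kd in 4-cell embryos, Cct5 at 199 and 315, Cct6a at 194 and 119 and Cct3 at 34.9 and 48.7, within or above the range of control embryos apart from 1 library of Cct6a. Psmd8 was at 266 and 186 and Psmd14 at 176 and 295 FPKM. Psma6 was at 136 and 210 and Psmb7 at 153 and 231 FPKM, in both genes above both control libraries. Psmb2 was at 154 and 93.1 FPKM against 36.0 and 16.7 in control embryos (adjusted p 0.124 by limma).

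Of the members with a restricted or inducible role, Psmb9, Psmb11, Psma8 and Psme1 were low, and Psme4 was at 20.7 to 134 FPKM. Subunits of the standard complexes such as Psmc2 and Cct8 were low as well. Psmb9, of the immunoproteasome, and Psmb11, of the thymus proteasome, stayed at or below 1.21 and 0.396 FPKM. Psma8, of the testis, did not exceed 2.65 FPKM, and Psme1, an interferon-inducible activator subunit, was above 1 FPKM only in the first 4-cell control library (6.36). Psmg2, the assembly chaperone with the lowest mean, did not exceed 2.16 FPKM, and the 4 pseudogenes did not exceed 0.788. Of the genes that are no subunits, Cct8l1 rose from 0.659 and 0.813 FPKM in 2-cell to 3.14 and 6.11 in 4-cell control embryos (adjusted p 0.029 by limma). It reached 1 FPKM in only 1 earlier library and needed a 4-cell library to pass the filter, so its call is a description. Psmc3ip was at 0 and 5.65 FPKM in 4-cell control and at 12.1 and 21.9 in 4-cell Ago2 kd embryos (adjusted p 0.232 by limma).

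Genes that work with the proteasome were examined as a list of 30, of which 27 were in the table and 22 were tested. Between 2-cell and 4-cell control embryos 9 rose (40.9%) and 1 fell (4.55%), against 21.1% and 17.5% of genes tested, with a median of 2.03 against 0.24. The number that rose was 4 when the second 2-cell control library was left out. Those that rose included Adrm1 and Shfm1, which belong to the 19S cap, the shuttle factor Rad23b, and Ufd1l, which works with the unfoldase Vcp. Ubb, a ubiquitin gene, fell from 467 and 604 to 33.8 and 104 FPKM (adjusted p 0.00775 by limma). From MII oocytes to 2-cell embryos 6 of the 22 (27.3%) fell and none rose, against 14.2% and 6.54% of genes tested. With libraries rescaled to the same sum 1 fell and 1 rose, with the same median 3 fell, with quantile normalization 2, and without the first or second oocyte library 1 or 2. Zfand5, whose protein binds and activates the 26S proteasome, was at 242 and 208 FPKM in oocytes, 18.5 and 9.9 in 2-cell control and 333 and 400 in 4-cell control embryos. It was the partner gene that was lower in 4-cell Ago2 kd embryos, at 38.0 and 62.1 FPKM, a difference of -2.88 (SE 0.39, adjusted p 0.00906 by limma). That is 1 of 22 (4.55%), against 2.77% of genes tested, and no partner was higher, against 1.23%. No partner was lower when only the compared groups were fitted. The Ago2 kd effect on Zfand5 differed between stages by -4.15 (SE 0.55, adjusted p 0.0128 by limma), where 1.64% of genes tested were lower. Nfe2l1, which drives proteasome genes, was between 16.8 and 62.1 FPKM except in the second 4-cell Ago2 kd library, where it was listed at 0.

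Prefoldin hands new actin and tubulin to CCT. Of its 5 tested genes, Pfdn2 and Pfdn6 (40%) rose between 2-cell and 4-cell control embryos and Pfdn4 (20%) fell. Among all genes tested 21.1% rose and 17.5% fell. None of the 3 tested phosducin-like cofactors of CCT passed at any step. Of 14 tested CCT clients, Cdc20 rose (7.14%) and the tubulins Tuba1c and Tubb3 fell (14.3%), against 21.1% and 17.5% of genes tested. Cdc20 was at 482 and 539 FPKM in oocytes, 0.176 and 58.8 in 2-cell control and 437 and 440 in 4-cell control embryos. From MII oocytes to 2-cell control embryos Pfdn6 rose and Pfdn4 fell, 1 of 5 genes (20%) each. Of the clients Tubb5 rose (7.14%) and Plk1 and Cdc20 fell (14.3%), against 6.54% and 14.2% of genes tested. Tubb3 was at 52.9 and 46.9 FPKM in 2-cell and at 0.78 and 0 in 4-cell control embryos (adjusted p 0.000152 by limma). None of these prefoldin, cofactor and client genes differed between Ago2 kd and control embryos at an adjusted p below 0.05 by limma.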

How the data were processed

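The authors used FastQC and Trim Galore on the reads, HISAT2 for alignment to GRCm38.p6 (version 2.1.0 in the submitters' processing notes) and StringTie for the FPKM they deposited. The log2(FPKM + 1) was used with no further normalization. A model with 1 mean per group was fitted to the 10 libraries (5 residual degrees of freedom) with limma 3.58.1 in R 4.3.3, with empirical Bayes and a trend, for the 8726 genes that reached 1 FPKM in 2 or more libraries. The 5 contrasts were tested two-sided, and p-values were Benjamini-Hochberg adjusted over all genes tested. The labels number 2 replicates per group but do not say that they are separate collections of embryos, so p-values measure the spread between these libraries, which may be technical. An exact permutation test of 2 against 2 cannot go below 0.333. The number of reads is unknown. Positions are from GENCODE M21 (GRCm38) and promoters from RefSeq (GRCm38.p6). Members and lists were chosen with earlier results of these data known. Named were called members (at most 8 in each direction per comparison, largest difference first, and with none called the 3 of lowest p), the highest and lowest mean of each complex, all CCT genes, tissue-restricted members and genes that are no subunits. Other genes named were chosen after their values were seen. Alternatives were another pseudocount (0.1), filter, scaling, variance model, sample set, a replicate block and leaving out each library.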

Additional observations from a re-analysis of the deposited data

Results flagged for a closer look

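The effect of Ago2 kd differed between the 4-cell and the 2-cell stage for 2 members, by the interaction term of the limma model. For Psmd2 the difference between the effects was -4.96 log2 units, with 36.2 and 47.5 FPKM in 4-cell control and less than 0.5 in each 2-cell and 4-cell Ago2 kd library. The gene passed the filter through the 4-cell control libraries alone, and 47.6% of the 145 genes of that kind were lower in this test. For Psmd3 it was -4.93, with Ago2 kd above control at the 2-cell stage and below it at the 4-cell stage in all libraries, and it passed in 2 of 19 alternatives.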

How the results depend on the processing

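The number of members called at each step was recomputed under 19 alternatives, 10 of which left out 1 library. From MII oocytes to 2-cell embryos (0 higher, 4 lower), the pseudocount of 0.1 gave 3 higher, rescaling to the same sum 3 higher and 1 lower, scaling to the same median 1 and 1, quantile normalization 1 lower and the fit of the compared groups alone 2 higher and 8 lower. Leaving out 1 library gave 0 to 1 higher and 2 to 7 lower, with 2 lower without either oocyte library or the first 2-cell control library and 7 without either 4-cell Ago2 kd library. From the 2-cell to the 4-cell stage (21 higher, 4 lower), leaving out 1 library gave 13 to 27 higher and 3 to 4 lower, with 13 without the first 2-cell control or the second 4-cell control library. For Ago2 kd at the 4-cell stage (0 higher, 2 lower), 1 member was lower with no filter, with each of the 3 scalings and with the replicate block, and 0 with the filter of 4 libraries, which does not test Psmd2, or with the compared groups alone. Leaving out 1 library gave 0 to 1 higher and 1 to 9 lower, with 9 without the second 4-cell Ago2 kd library. For the interaction (2 lower), 1 was lower with the pseudocount of 0.1, no filter, scaling to the same median, quantile normalization, the replicate block, the compared groups alone and no trend, and 0 with the filter of 4 libraries, and leaving out 1 library gave 1 to 7. Where 1 library of a group was left out, the other was assumed to vary like the other groups. The number of calls among all genes tested shifted as well when 1 library was left out. The cause of these shifts was not tested.

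Of the 33 calls of single members, 12 held under every alternative that tested them and none changed direction, while 135 of 621 recalculations lost the call. The 12 include Psma6, Psmc3, Psmc4 and Psmd2 at the step from 2 to 4 cells and Psmd2 in the interaction. Psmc3, Psmc4 and Psmd2 passed the filter through 4-cell libraries alone. Psma6 reached 1 FPKM in only 1 earlier library and also needed a 4-cell library to pass. The calls of these genes at these tests could hardly change direction and are a description. Cct8, which was not called, had a difference from 2 to 4 cells of -0.19 without the second 4-cell control library and of 0.59 without the first. The differences between replicates 1 and 2 correlated across genes by -0.093 to 0.092 between groups. The labels do not say whether replicates with the same number were collected together, and these correlations cannot tell. The replicate block gave 0 and 4, 20 and 4, 0 and 0, 0 and 1, and 0 and 1 members higher and lower in the 5 comparisons.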
